A study of Mus musculus with 34 samples.

Results

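The genes described here are 48 mouse genes of autophagy, of the selective degradation of endoplasmic reticulum (ER-phagy) and of the lysosome, chosen by gene symbol from 55487 gene IDs in the deposited tables of liver messenger RNA. They comprise 21 genes of the autophagy machinery, 3 cargo receptors, 5 ER-phagy receptors, the transcription factors Tfeb and Tfe3, and 17 genes of lysosomal enzymes, membrane proteins and the proton pump. Polyadenylated RNA was sequenced from whole livers of male mice that were 3 months old. In the first table, 5 PiZ mice and 5 PiZ mice labelled as p50 knockouts (PiZ p50KO) had received an intraperitoneal injection of the vehicle PBS. It also held 6 wild-type (WT) mice 2 hours after TNFa and 6 WT mice given PBS. The second table held 6 WT mice 24 hours after tunicamycin and 6 WT mice given its vehicle DMSO. PiZ mice are transgenic for the human Z variant of alpha-1 antitrypsin, a secreted protease inhibitor that polymerizes in the ER. Both PiZ groups carry this transgene. The p50 knockout is given as -/- in the study's design, and p50 is the NF-kB subunit made from Nfkb1. The promoter of the transgene and the exons that the knockout removes are not given in the sources used here. TNFa is an inflammatory cytokine, and tunicamycin blocks N-linked glycosylation, so that unfolded glycoproteins accumulate in the ER. The design compares PiZ with WT under PBS, TNFa with PBS in WT, PiZ p50KO with PiZ, and tunicamycin with DMSO. The labels name the tables as different batches, and no library was compared across them.

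Autophagy wraps part of the cytoplasm in a double membrane, the autophagosome, and delivers it to the lysosome. The ULK1 kinase complex starts the process, a lipid kinase complex around Beclin 1 marks the membrane, and ubiquitin-like conjugation attaches ATG8 proteins (the LC3 and GABARAP families) to it. Cargo receptors such as p62, encoded by Sqstm1, and ER-phagy receptors such as Retreg1 (FAM134B) bind ATG8 proteins and their cargo. TFEB and TFE3 activate many lysosomal genes through an E-box element, and in liver this route degrades polymerized alpha-1 antitrypsin that escapes the proteasome.

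The promoters of the members differ in that E-box. RefSeq promoter windows (build GRCm38.p6, 250 bases before the gene start and the bases just after it, 300 in all) were matched for 39 members, in 48 windows. The letters CACGTG, a palindrome that reads the same on both strands, occurred in 27.1% of the members' windows and in 7.15% of all 32851 windows. By role, 8 of 13 lysosomal members, 4 of 16 members of the autophagy machinery and 1 of 5 ER-phagy receptors (Retreg1) held a match, while 0 of 3 cargo receptors and neither Tfeb nor Tfe3 did. The letters TGATGCAA, a C/EBP-ATF response element, were searched on both strands and found in no window of a member and in 0.895% of the windows used. A match describes letters only, and no match says nothing of a factor. The RefSeq start lay within 100 bases of the start that GENCODE M21 annotates for the gene in 27 of the 48 windows and farther away in 21, so some windows are not those of the annotated start. The bases upstream of Lamp1 and Sqstm1, whose RefSeq starts lie 0 and 7 bases from the annotated ones, are printed because these genes moved in opposite directions after tunicamycin, with CACGTG in capitals: Lamp1 on the plus strand (chr8:13158911-13159160) and Sqstm1 on the minus strand (chr11:50210821-50211070).
Lamp1: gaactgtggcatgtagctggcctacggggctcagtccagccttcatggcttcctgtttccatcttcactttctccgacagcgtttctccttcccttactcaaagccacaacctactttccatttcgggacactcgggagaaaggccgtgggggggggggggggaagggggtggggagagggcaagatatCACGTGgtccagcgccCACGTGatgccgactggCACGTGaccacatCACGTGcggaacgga
Sqstm1: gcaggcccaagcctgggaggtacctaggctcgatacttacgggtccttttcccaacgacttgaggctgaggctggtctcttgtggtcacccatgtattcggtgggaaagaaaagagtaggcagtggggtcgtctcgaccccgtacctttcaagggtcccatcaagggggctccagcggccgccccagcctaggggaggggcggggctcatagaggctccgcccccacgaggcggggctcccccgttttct
Counted from the gene start, the 4 matches of Lamp1 begin at -61, -45, -28 and -15, while Sqstm1 has none. In the main test described below, members with a match went both ways after tunicamycin. Ctsl, Atp6v0d1 and Retreg1 were higher, and Lamp1, Ctsa, Gaa, Atg7, Atg14 and Atp6v1a were lower. Atg3, Atg5, Ctsd and Mcoln1 were not called. A link between the E-box and these changes was not tested.

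A few facts of the libraries touch every result. WT PBS 2 stood apart: it held 10.2 M reads against 35.5 to 54.0 M in the other libraries of the first table, 72.2% of its reads lay in protein-coding genes against 97.3 to 97.8%, and it is left out of the tests below unless named. Relative to the other 5 WT PBS libraries, as deposited, it lay below them all for 26 members, above them all for 15 and within their range for 7. Its Lamp1 was 6.43 log2 CPM (log2 of reads scaled to the library's depth) against 9.34 to 9.79, its Sqstm1 was 6.13 against 8.17 to 8.74, and its Tfeb was 5.93 against 1.91 to 2.91. The second table held 34.3 to 47.8 M reads per library. Most values below are scaled log2 CPM, for which each library was shifted to the same median over the genes tested. Summed CPM of marker lists were also taken after this shift, so differences in them include it. As deposited, the median gene changed by 0.40 in PiZ, by -0.02 after TNFa, by -0.22 in PiZ p50KO and by 0.38 after tunicamycin. After the shift it changed by -0.09, -0.08, 0.04 and -0.07. Many members changed by no more than this shift, so a call is described first where limma gave it in the same direction on 3 scales (shifted, deposited and quantile-normalized), at an adjusted p under 0.05 over all genes tested.

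Per kilobase of exon, the members spanned a wide range. Lamp1, an abundant glycoprotein of the lysosomal membrane, ranked first in PiZ (8.09 ± 0.09 log2 CPM per kb, SD, n = 5), in PiZ p50KO (8.15 ± 0.09, n = 5), after TNFa (8.43 ± 0.09, n = 6), in WT PBS (8.37 ± 0.15, n = 5) and in WT DMSO (7.95 ± 0.13, n = 6). After tunicamycin Sqstm1 ranked first (8.24 ± 0.29, n = 6) and Ctsl second (8.21 ± 0.30), which differ by less than their spread, and Lamp1 ranked sixth (6.54 ± 0.64). Sqstm1 ranked second in PiZ, in PiZ p50KO and after TNFa, the fifth in WT PBS and the third in WT DMSO. Tfeb ranked last of the 47 tested members in every group. The remaining member, the ER-phagy receptor Ccpg1, had too few reads for the test: 4 to 11 in PiZ libraries, 2 to 16 in PiZ p50KO, 0 to 10 after TNFa, 4 to 13 in WT PBS with 80 in WT PBS 2, 12 to 34 after tunicamycin and 6 to 30 in WT DMSO. It shares 42.9% of its exon bases with the gene Gm44503 on the same strand and 28.9% with Pigb on the opposite strand. Whether this affected its read numbers was not tested.

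In PiZ livers, Sqstm1, Ctss and Ctsd were higher than in WT PBS livers on all 3 scales, and Ulk2, Map1lc3a and Map1lc3b were lower on all 3. These are a cargo receptor and 2 cathepsins on one side, and a starter kinase and 2 of the LC3 proteins on the other. On the 3 scales jointly, 14.8% of all 13285 genes tested were called higher and 5.91% lower. On the shifted scale alone the members split into 3 higher and 18 lower with 26 not called, against 17.4% and 22.5% of all genes. The same members split into 16 higher and 3 lower as deposited (45.6% and 6.19% of all genes) and into 12 and 7 after quantile normalization (18.4% and 20.8%). Whether the other members were called therefore rests on the scaling, and the sign of the change as deposited was that of the shifted scale for 24 of the 47 members. Their median change was -0.22 against -0.09 over all genes tested on the shifted scale, and 0.27 against 0.40 as deposited. The groups did not overlap for 3 members that were higher, one of them (Atp6v1a) short of the call, and for 12 that were lower, against 14.6% and 15.8% of all genes.

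**Figure D1:**
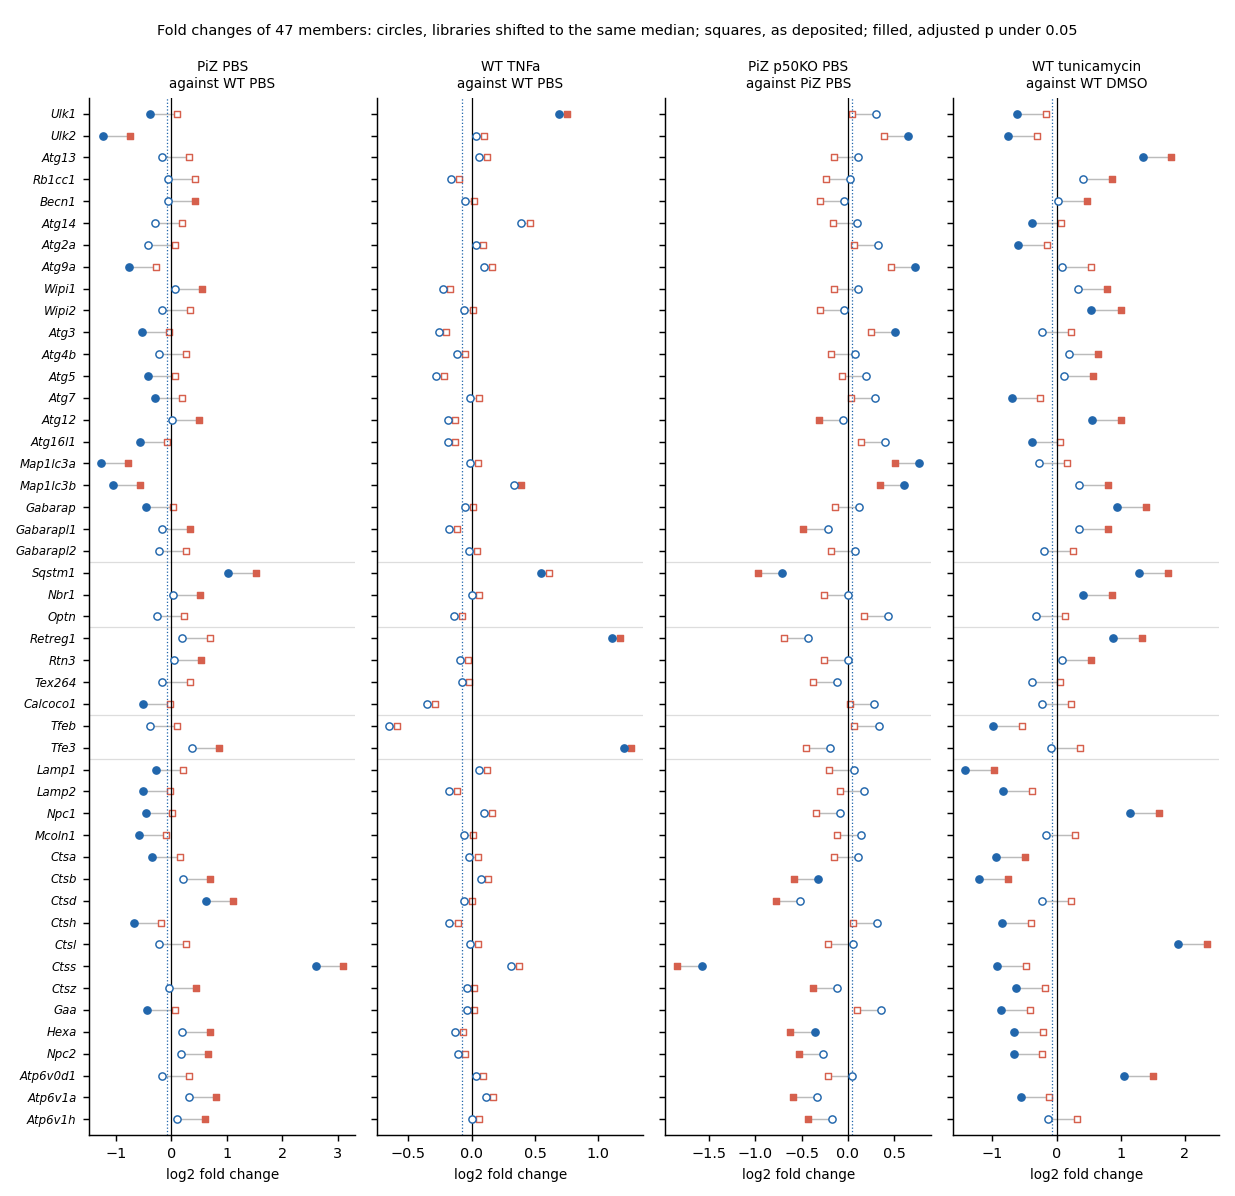
Log2 fold change of the 47 tested members in the 4 comparisons (horizontal axis), by role, with circles for values shifted to a common median, squares for values as deposited, filled symbols for an adjusted p under 0.05 and a dotted line for the median of all genes tested. Ctss in PiZ (2.61) and Ctsl after tunicamycin (1.90) lie farthest to the right, and in these 2 comparisons the squares lie to the right of the circles.

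Among the genes that start and build the autophagosome, Ulk2, a kinase related to Ulk1, had 5.42, 5.50, 5.35, 4.96 and 5.20 scaled log2 CPM in PiZ livers 1 to 5. In WT PBS livers 1 and 3 to 6 it had 6.54, 6.46, 6.41, 6.66 and 6.52. Every PiZ library lay below every WT PBS library, and the difference was -1.23 (SE 0.20, adjusted p = 3.92e-05). Map1lc3a, which encodes LC3A, had 5.32, 5.19, 5.47, 5.81 and 5.56 in PiZ livers, against 6.71, 6.30, 6.97, 6.89 and 6.81 in WT PBS livers. It too was separate between the groups, by -1.26 (SE 0.13, adjusted p = 1.91e-07). Map1lc3b, which encodes the LC3B widely used to mark autophagosomes, had 7.45, 7.24, 7.40, 7.6 and 7.47 in PiZ livers, against 8.44, 8.52, 8.66, 8.34 and 8.48 in WT PBS livers. Its difference was -1.05 (SE 0.13, adjusted p = 1.46e-06), and the range within each group was under that gap. With WT PBS 2 included, Ulk2 was still called lower (-0.95, adjusted p = 0.0362), when 7.57% of all genes were called higher and 5.1% lower, while Map1lc3a (-0.55, adjusted p = 0.591) and Map1lc3b (-0.48, adjusted p = 0.585) were not. Atg9a, a lipid scramblase of the vesicles that seed the membrane, had 4.46, 4.67, 4.31, 4.10 and 4.67 in PiZ livers, against 5.10, 5.71, 4.71, 5.46 and 5.10 in WT PBS livers. It was lower by the shifted scale (-0.77, adjusted p = 0.00381) and not as deposited (-0.28, adjusted p = 0.357). In all, 10 of 21 machinery genes were called lower and 0 higher on the shifted scale, against 22.5% and 17.4% of all genes. The other 6 were Ulk1, the conjugation genes Atg3, Atg5, Atg7 and Atg16l1, and Gabarap, with differences of -0.56 to -0.30. As deposited they differed by -0.07 to 0.19 with none called. Leaving out 1 library ended the call of Ulk1 (PiZ 4, WT PBS 1 or WT PBS 3; highest adjusted p = 0.0823), Atg5 (PiZ 2 or WT PBS 4; 0.061) and Atg7 (PiZ 3, PiZ 4, WT PBS 5 or WT PBS 6; 0.0894).

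Sqstm1 had 9.74, 9.83, 9.83, 9.11 and 9.79 scaled log2 CPM in PiZ livers, against 8.86, 8.23, 8.5, 8.78 and 8.78 in WT PBS livers. PiZ 4 was the lowest PiZ library and still lay above the highest WT PBS library. The difference was 1.03 (SE 0.18, adjusted p = 0.000129), 1.52 as deposited, and 1.69 with WT PBS 2 included (adjusted p = 0.043). The other cargo receptors, Nbr1 (0.03, adjusted p = 0.849) and Optn (-0.26, adjusted p = 0.249), did not pass the test on the shifted scale. Nbr1 was called higher as deposited (0.52, adjusted p = 0.000624) and after quantile normalization (0.34, adjusted p = 0.0108).

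Of the 4 ER-phagy receptors tested, Calcoco1, a soluble receptor, had 3.92, 4.11, 4.51, 4.39 and 4.21 in PiZ livers, against 4.83, 4.55, 4.88, 4.56 and 4.85 in WT PBS livers. The groups were separate on the shifted scale (-0.51, adjusted p = 0.0163) but it was not called as deposited (-0.02, adjusted p = 0.938), nor without PiZ 1 (adjusted p = 0.0526). Retreg1, which bends and fragments ER sheets, ranged from 5.48 to 6.78 in PiZ livers and from 5.42 to 6.45 in WT PBS livers (0.20, adjusted p = 0.676). Rtn3 (0.05) and Tex264 (-0.16) were not called on the shifted scale, and Rtn3 was called higher as deposited (0.54, adjusted p = 0.000723) and after quantile normalization (0.29, adjusted p = 0.0165). Tfeb had 2.26, 2.59, 2.50, 1.68 and 2.70 in PiZ livers, against 2.82, 2.95, 2.25, 2.95 and 2.73 in WT PBS livers, and the groups overlapped (-0.39, adjusted p = 0.337). Tfe3 had 5.26, 5.17, 4.92, 4.51 and 4.84 in PiZ livers, against 4.77, 4.53, 4.55, 4.49 and 4.54 in WT PBS livers. It was not called with all libraries on the shifted scale (0.37, adjusted p = 0.0787), and it was called higher as deposited (0.86, adjusted p = 0.00134) and after quantile normalization (0.47, adjusted p = 0.0271). It was also called without PiZ 4 (0.48, adjusted p = 0.021), where 16.6% of all genes were called higher and 22.4% lower.

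Cathepsin S (Ctss), a cysteine protease of antigen-presenting cells, had the largest change among the members in PiZ livers. It had 7.15, 7.11, 7.48, 7.47 and 7.19 scaled log2 CPM in PiZ livers, against 4.82, 4.26, 4.83, 4.66 and 4.78 in WT PBS livers (2.61, SE 0.25, adjusted p = 1.01e-07). Macrophage and Kupffer cell markers moved with it: 16 of 18 were higher in PiZ on all 3 scales and 1 (Cd163) was lower. Their summed level, after the shift, was 1110 to 1280 CPM in PiZ livers, against 451 to 468 CPM in WT PBS livers, and none was at 0 in either group. Their part in the result was not tested, and in bulk liver a change in the number of cells of a type and a change in RNA per cell cannot be told apart. Stellate cell markers were higher for 5 of 6 (517 to 635 CPM summed in PiZ livers, 156 to 184 CPM in WT PBS livers), and bile duct markers for 3 of 5 on the shifted scale (77.4 to 98.4 CPM in PiZ livers, 27.7 to 31.7 CPM in WT PBS livers). Of 9 hepatocyte markers in the table, 8 were lower on the shifted scale and 2 on all 3 scales. Summed after the shift they were at 54100 to 94400 CPM in PiZ livers and 108000 to 135000 CPM in WT PBS livers.

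Ctsd, the aspartic protease cathepsin D, had 8.45, 8.45, 8.12, 7.44 and 8.40 in PiZ livers, against 7.44, 7.65, 7.15, 7.84 and 7.64 in WT PBS livers. PiZ 4 lay within the WT PBS range, and the other 4 PiZ libraries lay above it. The difference was 0.63 (SE 0.21, adjusted p = 0.0204) and the call was lost without PiZ 1, 2 or 5 or without WT PBS 4 (highest adjusted p = 0.0617), and with WT PBS 2 included (1.08, adjusted p = 0.0884). Lamp1 had 9.61, 9.48, 9.55, 9.38 and 9.54 in PiZ livers, against 9.72, 9.65, 9.67, 9.98 and 9.91 in WT PBS livers. Its direction turned with the scaling, from -0.27 on the shifted scale (adjusted p = 0.016) to 0.21 as deposited (adjusted p = 0.126) and 0.28 after quantile normalization (adjusted p = 0.0224), and the call on the shifted scale was lost without WT PBS 5 (adjusted p = 0.0573). Ctsh, an aminopeptidase, had 7.62, 7.40, 7.36, 7.76 and 7.48 in PiZ livers, against 8.12, 8.0, 8.46, 8.18 and 8.27 in WT PBS livers. The groups were separate on the shifted scale (-0.68, adjusted p = 0.000151), and Ctsh was not called as deposited (-0.19, adjusted p = 0.0821). Mcoln1, a calcium channel of the lysosomal membrane, had 4.57, 4.55, 4.56, 4.01 and 4.36 in PiZ livers, against 4.77, 5.37, 4.86, 5.01 and 4.95 in WT PBS livers. It differed by -0.58 on the shifted scale (adjusted p = 0.000983) and by -0.09 as deposited (adjusted p = 0.683). Of 17 lysosomal members, 2 were higher (Ctss, Ctsd) and 7 were lower on the shifted scale, the others being Lamp2, the cholesterol transporter Npc1, the carboxypeptidase Ctsa and the acid glucosidase Gaa, by -0.51 to -0.34. The call was lost for Ctsa without PiZ 4 (adjusted p = 0.0517) and for Gaa without PiZ 4, WT PBS 3 or WT PBS 5 (highest adjusted p = 0.0933). Of all genes tested, 17.4% were called higher and 22.5% lower on the shifted scale. As deposited 8 of the 17 were higher and 0 lower, against 45.6% and 6.19% of all genes. Ctsb was one of the 8, at 0.70 as deposited and 0.82 after quantile normalization, against 0.21 on the shifted scale (adjusted p = 0.119).

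**Figure D2:**
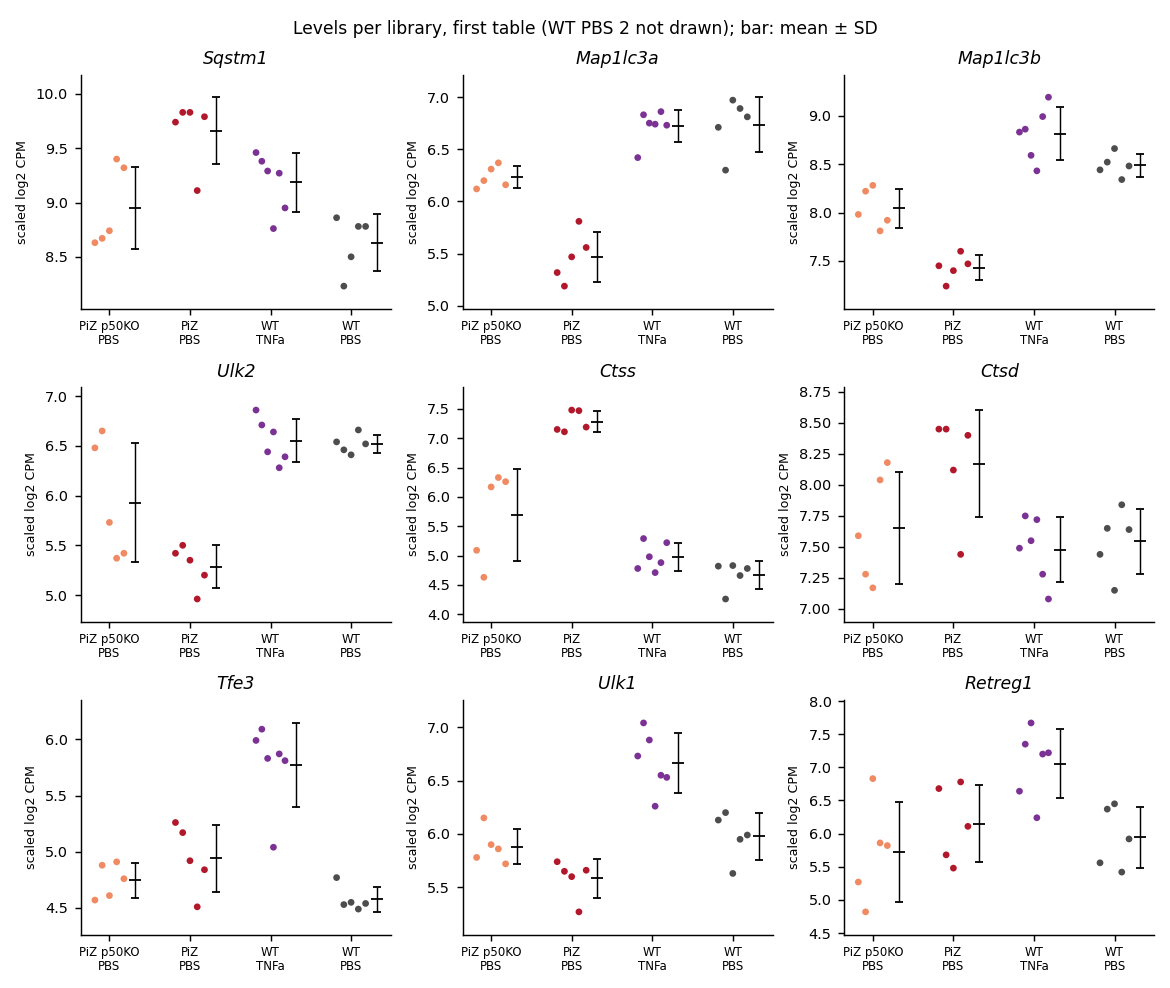
Scaled log2 CPM (vertical axis) of 9 members in each library of PiZ p50KO, PiZ, TNFa and WT PBS, as points with a bar for the mean ± SD, without WT PBS 2. Ctss and Sqstm1 are high in PiZ, with Sqstm1 of PiZ 4 at 9.11, Map1lc3a and Map1lc3b are low in PiZ, and Tfe3 is high after TNFa except in TNFa 4 (5.04).

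Genes of the same pathways outside the members were taken from 5 lists. For comparison, 14.8% of all genes tested were higher and 5.91% lower on all 3 scales, and 17.4% and 22.5% on the shifted scale. On all 3 scales, 3 of 14 other subunits of the V-ATPase proton pump were higher and 0 lower: Atp6v0d2 (1.98, adjusted p = 0.000187), Atp6v0c (1.20, adjusted p = 0.00813) and Atp6v0e (0.91, adjusted p = 0.00156). Of 49 other lysosomal hydrolases and their sorting genes, 8 were higher and 3 lower on all 3 scales, with 8 and 14 on the shifted scale. The tetraspanin Cd63 had 5.03 ± 0.26 in PiZ livers and 2.04 ± 0.24 in WT PBS livers (SD, n = 5 each; 2.99, adjusted p = 5.67e-06), while Ctsf (-1.25) and Manba (-1.07) were lower. Among 19 relatives of TFEB and genes of lysosomal mTORC1 signalling, 2 were higher on all 3 scales and 0 lower. These were Rragd, a GTPase that recruits mTORC1 and a known TFEB target (2.83 ± 0.35 in PiZ livers and 0.36 ± 0.26 in WT PBS livers, adjusted p = 5.5e-07), and Mitf (0.68, adjusted p = 0.00503). Of 19 other receptors and UFMylation genes, 2 were higher on all 3 scales, among them the mitophagy receptor Fundc1, and 1 was lower, the mitophagy receptor Bnip3 (-1.11). Of 25 other machinery genes limma called 0 on all 3 scales and 6 lower on the shifted scale, with 7 lower and 0 higher at an unadjusted p under 0.05.

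After TNFa for 2 hours 4 of 47 members rose, 0 fell and 43 were not called. Of all genes tested 7.42% were higher and 6.18% lower, so most of them were not called either. At an unadjusted p under 0.05, limma gave 6 members higher and 3 lower. As deposited 4 were called higher, Ulk1, Retreg1, Tfe3 and Map1lc3b, and 0 lower (7.63% and 4.05% of all genes), and 3 and 0 were called on all 3 scales (6.71% and 3.68%). The members' median was -0.04 against -0.08 over all genes. The risers were Tfe3, Retreg1, Ulk1 and Sqstm1, 1 in each role outside the lysosome. None of 17 lysosomal members was called, with differences of -0.18 to 0.31 and 0 of them at an unadjusted p under 0.05. The groups did not overlap for 2 members, Ulk1 and Tfe3 (3.49% of all genes did so in that direction and 2.17% in the other).

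Tfe3 ranged from 5.04 in TNFa 4, with a median of 5.85, to 6.09 scaled log2 CPM after TNFa, against 4.77, 4.53, 4.55, 4.49 and 4.54 in WT PBS livers. Even TNFa 4, well below the other 5 TNFa libraries (5.81 to 6.09), lay above all WT PBS libraries, and the difference was 1.20 (SE 0.16, adjusted p = 2.66e-05). In TNFa 4 Nfkb1, an early target of TNF signalling, was at 4.89 scaled log2 CPM, while the remaining TNFa values were 6.73 to 7.02 and those of WT PBS livers 4.21 to 4.51. Tfeb moved the other way without a call: 1.61, 1.96 and 3.08 were its lowest, median and highest values after TNFa, against 2.82, 2.95, 2.25, 2.95 and 2.73 in WT PBS livers (-0.65, adjusted p = 0.173). The highest of these was TNFa 4. Without TNFa 4, Tfe3 was higher by 1.34 and Tfeb was called lower (-0.85, adjusted p = 0.0362), where 8.98% of all genes were called higher and 9.26% lower.

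Retreg1 ranged from 6.24 (median 7.21) to 7.67 after TNFa, against 5.56, 6.37, 6.45, 5.42 and 5.92 in WT PBS livers. The lowest value was again that of TNFa 4, the only TNFa library inside the WT PBS range. The difference was 1.11 (SE 0.32, adjusted p = 0.023), and the call was lost without TNFa 2 or 3 or without WT PBS 1 or 5 (highest adjusted p = 0.074). Ulk1, the kinase that starts autophagy, ranged from 6.26 (median 6.64) to 7.04 after TNFa, against 6.13, 6.20, 5.63, 5.95 and 5.99 in WT PBS livers, with no overlap (0.69, SE 0.13, adjusted p = 0.00108). Sqstm1 ranged from 8.76 (median 9.28) to 9.46 after TNFa, against 8.86, 8.23, 8.5, 8.78 and 8.78 in WT PBS livers. Its rise of 0.55 (adjusted p = 0.0386) was not called as deposited (adjusted p = 0.068) or after quantile normalization (adjusted p = 0.0528, with 6.91% of all genes called higher). The call was also lost when any 1 of TNFa 1, 2, 3 and 5 or WT PBS 3, 4, 5 and 6 was left out (highest adjusted p = 0.111), and with WT PBS 2 included (1.22, adjusted p = 0.173, with 4.07% of all genes called higher and 3.88% lower). With WT PBS 2, Ulk1 (1.03), Retreg1 (1.56) and Tfe3 (1.29) were called. Map1lc3b ranged from 8.43 (median 8.85) to 9.19 after TNFa, against 8.44, 8.52, 8.66, 8.34 and 8.48 in WT PBS livers (0.33, adjusted p = 0.0747), and it was called higher as deposited (0.39, adjusted p = 0.0237) and without TNFa 4 (0.41, adjusted p = 0.0152). Lamp1 ranged from 9.68 (median 9.87) to 9.94 after TNFa, against 9.65 to 9.98 in WT PBS livers, and the groups overlapped (0.06, adjusted p = 0.704). Neutrophil markers were called higher for 5 of 7 (11.6 to 134 CPM summed over the list after TNFa, 3.94 to 26.0 CPM in WT PBS livers). Macrophage markers summed to 538 to 705 CPM after TNFa and 451 to 468 CPM in WT PBS livers, with Lyz2 (1.23) and Itgax (1.54) among those higher. The endothelial Lyve1 (1.28) and the bile duct genes Sox9 (1.44) and Krt19 (1.09) were higher, and the endothelial Kdr (-1.14) and stellate Lrat (-1.29) lower. These had the largest changes among the called genes of their lists. Summed over the list after TNFa and in WT PBS livers, endothelial markers were at 174 to 211 and 199 to 215 CPM. Stellate markers were at 165 to 191 and 156 to 184 CPM, and bile duct markers at 31.2 to 54.6 and 27.7 to 31.7 CPM. No marker of these lists was at 0 in either group, and their part in these results was not tested.

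Among the 5 lists of other pathway genes few were called after TNFa, as was the case over all genes tested. For comparison, 6.71% of all genes tested were higher and 3.68% lower on all 3 scales. Of 25 other machinery genes, 2 were higher and 1 lower on all 3 scales. Atg16l2, a relative of Atg16l1, was among the higher ones (4.51 ± 0.69 after TNFa, n = 6, and 2.64 ± 0.35 in WT PBS livers, n = 5; 1.87, adjusted p = 0.000113), and Atg101, a subunit of the ULK1 complex, was lower (-0.77, adjusted p = 0.00423). Flcn, a regulator of TFE3 and TFEB (0.84, adjusted p = 0.00376), and Tfec (1.24, adjusted p = 0.00649) were higher and Sesn2, a stress-induced inhibitor of mTORC1 (-1.22, adjusted p = 0.0153), was lower among 19. Of 49 hydrolases and sorting genes 1 was higher and 1 lower on all 3 scales, the lower one being the phospholipase Pla2g15 (-0.77), and of 19 other receptors the glycogen receptor Stbd1 was lower (-0.99, adjusted p = 0.0129). Of 14 V-ATPase subunits limma called 0, with 0 at an unadjusted p under 0.05.

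In livers labelled PiZ p50KO, LC3 genes were higher and Sqstm1 and 3 lysosomal genes were lower than in PiZ livers. On all 3 scales Map1lc3a and Map1lc3b were higher and Sqstm1, Ctss, Ctsb and Hexa were lower, against 3.19% higher and 8.32% lower of all genes. On the shifted scale 5 members were higher and 4 lower (9.84% and 9.11% of all genes), and as deposited 2 were higher and 11 lower (3.36% and 21.6%). After quantile normalization 8 were lower (10.4% of all genes). The members' median was 0.08 against 0.04 over all genes. The groups did not overlap for Map1lc3a and Map1lc3b (higher, 5.52% of all genes) and for Ctss (lower, 6.53%). This comparison shares its PiZ libraries with that of PiZ and WT PBS, so the same PiZ values enter both. Nfkb1 itself, in the libraries labelled PiZ p50KO 1 to 5, was 4.57, 4.71, 3.47, 3.59 and 3.26 scaled log2 CPM, against 5.28, 5.02, 4.61, 4.58 and 4.78 in PiZ livers. Library 2 lay within the PiZ range and library 1 just below its lowest value, and both are in every value of this comparison unless they are named as left out. Without them 2 members were called higher and 1 lower on the shifted scale (4.74% and 4.16% of all genes), and the groups did not overlap for 3 members that were higher and 1 that was lower (8.61% and 8.22%). The members' median was then 0.09 against 0.04 over all genes.

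Map1lc3a had 6.12, 6.20, 6.31, 6.37 and 6.16 in livers labelled PiZ p50KO, against 5.32, 5.19, 5.47, 5.81 and 5.56 in PiZ livers (0.77, SE 0.13, adjusted p = 0.000279). Map1lc3b had 7.98, 8.22, 8.28, 7.81 and 7.92 in livers labelled PiZ p50KO, against 7.45, 7.24, 7.40, 7.6 and 7.47 in PiZ livers (0.61, SE 0.13, adjusted p = 0.0019). Both were separate between the groups, and both were called without libraries 1 and 2 as well (0.81, adjusted p = 0.00172, and 0.57, adjusted p = 0.0186). Ulk2 had 6.48, 6.65, 5.73, 5.37 and 5.42 in livers labelled PiZ p50KO, against 5.42, 5.50, 5.35, 4.96 and 5.20 in PiZ livers. Its difference of 0.65 (adjusted p = 0.0252) came to 0.22 without libraries 1 and 2 (adjusted p = 0.398), and it was not called as deposited (adjusted p = 0.212) or without any 1 of PiZ 4, PiZ 5 and libraries 1 and 2 (highest adjusted p = 0.0899). Atg9a had 5.24, 5.70, 4.57, 5.10 and 5.19 in livers labelled PiZ p50KO, against 4.46, 4.67, 4.31, 4.10 and 4.67 in PiZ livers. Its call (0.72, adjusted p = 0.0156) was lost without library 2 (adjusted p = 0.0534), without both (0.51, adjusted p = 0.167) and as deposited (adjusted p = 0.195). Atg3, the enzyme that attaches ATG8 proteins to lipid (0.51, adjusted p = 0.0283), was likewise not called as deposited (adjusted p = 0.106) or without both libraries (adjusted p = 0.0851), nor without any 1 of PiZ 1, 2, 3 and 5 and libraries 1 and 3 (highest adjusted p = 0.0989).

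Sqstm1 had 8.63, 8.67, 8.74, 9.40 and 9.32 in livers labelled PiZ p50KO, against 9.74, 9.83, 9.83, 9.11 and 9.79 in PiZ livers. The groups overlapped through PiZ 4, and libraries 4 and 5 lay nearer to the PiZ values than libraries 1 to 3. The difference was -0.71 (SE 0.18, adjusted p = 0.00958), and without libraries 1 and 2 it was -0.51 and not called (adjusted p = 0.129). Ctss had 5.09, 4.63, 6.17, 6.33 and 6.26 in livers labelled PiZ p50KO, against 7.15, 7.11, 7.48, 7.47 and 7.19 in PiZ livers. The difference was -1.58 (SE 0.25, adjusted p = 0.000161), and -1.03 without libraries 1 and 2 (adjusted p = 0.000169). Macrophage markers moved with it, with 17 of 18 lower on the shifted scale and a summed level of 491 to 847 CPM in livers labelled PiZ p50KO, against 1110 to 1280 CPM in PiZ livers. Stellate cell markers were lower for 5 of 6 on all 3 scales, among them Col1a1 (-2.56, adjusted p = 3.09e-05), with a summed level of 200 to 319 CPM in livers labelled PiZ p50KO, against 517 to 635 CPM in PiZ livers. Bile duct markers were lower for 3 of 5 on all 3 scales, among them Epcam (-1.32, adjusted p = 0.00137), with 29.6 to 66.7 CPM in livers labelled PiZ p50KO, against 77.4 to 98.4 CPM in PiZ livers. Hepatocyte markers were higher for 8 of 9 on the shifted scale and for 1 on all 3 scales (Cyp2e1, 1.24, adjusted p = 0.000265), with 77700 to 136000 CPM in livers labelled PiZ p50KO, against 54100 to 94400 CPM in PiZ livers. Without libraries 1 and 2, the shifted scale called 9 of 18 macrophage, 3 of 6 stellate and 2 of 5 bile duct markers lower and 4 of 9 hepatocyte markers higher. No marker of these lists was at 0 in either group, and their part in the results of this comparison was not tested. Ctsb, the cysteine protease cathepsin B, had 9.44, 9.27, 9.2, 9.59 and 9.78 in livers labelled PiZ p50KO, against 9.93, 9.78, 9.78, 9.62 and 9.80 in PiZ livers (-0.32, adjusted p = 0.0337). Hexa, a subunit of beta-hexosaminidase, had 5.42, 5.19, 5.50, 5.83 and 5.86 in livers labelled PiZ p50KO, against 5.83, 6.04, 6.02, 5.80 and 5.89 in PiZ livers (-0.36, adjusted p = 0.0217). Neither Ctsb (-0.26, adjusted p = 0.201) nor Hexa (-0.19, adjusted p = 0.253) was called without libraries 1 and 2, and each lost the call when 1 library was left out: for Ctsb any of PiZ 1, 2, 3 and 5 and libraries 1 to 3 (highest adjusted p = 0.0907), and for Hexa any of PiZ 2 and 3 and libraries 1 and 2 (0.0684).

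Tfeb had 3.04, 3.33, 1.36, 2.78 and 2.89 in livers labelled PiZ p50KO, against 2.26, 2.59, 2.50, 1.68 and 2.70 in PiZ livers, and the groups overlapped (0.33, adjusted p = 0.505). Lamp1 had 9.61, 9.48, 9.46, 9.61 and 9.68 in livers labelled PiZ p50KO, against 9.61, 9.48, 9.55, 9.38 and 9.54 in PiZ livers (0.06, adjusted p = 0.724, -0.20 as deposited, and 0.07 without libraries 1 and 2). Of the 4 ER-phagy receptors tested limma called 0, with 0 at an unadjusted p under 0.05. Without libraries 1 and 2 it again called 0, with Rtn3 higher at an unadjusted p under 0.05 (0.18, adjusted p = 0.184). Among pathway genes outside the members, 9 hydrolases and sorting genes of 49 were lower and 2 higher on all 3 scales (8.32% and 3.19% of all genes). Cd63 had 2.86 ± 1.36 in livers labelled PiZ p50KO and 5.03 ± 0.26 in PiZ livers (SD, n = 5 each; -2.16, adjusted p = 0.00077) and Ctsf was higher (1.59, adjusted p = 0.000187). Rragd (-2.39, adjusted p = 4.21e-06), Atp6v0d2 (-1.32, adjusted p = 0.0152) and Atp6v0e (-0.75, adjusted p = 0.0158) were also lower on all 3 scales. On the shifted scale 4 of the 49 hydrolases and sorting genes were higher and 10 lower (9.84% and 9.11% of all genes). Without libraries 1 and 2 these counts were 4 and 3 (4.74% and 4.16%). Without them Cd63 (-1.27, adjusted p = 0.00326), Ctsf (2.16, adjusted p = 1.78e-08), Rragd (-1.99, adjusted p = 6.27e-05) and Atp6v0d2 (-1.08, adjusted p = 0.0457) were called, and Atp6v0e was not (-0.39, adjusted p = 0.225). With all libraries, of 25 other machinery genes and 19 other receptors limma called 0 on the shifted scale, with 4 higher and 1 lower and with 4 higher and 3 lower at an unadjusted p under 0.05. Without libraries 1 and 2 it called Atg16l2 lower among the machinery genes (-1.08, adjusted p = 0.0373) and Ncoa4, the ferritin receptor, higher among the receptors (0.31, adjusted p = 0.0455).

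**Figure D3:**
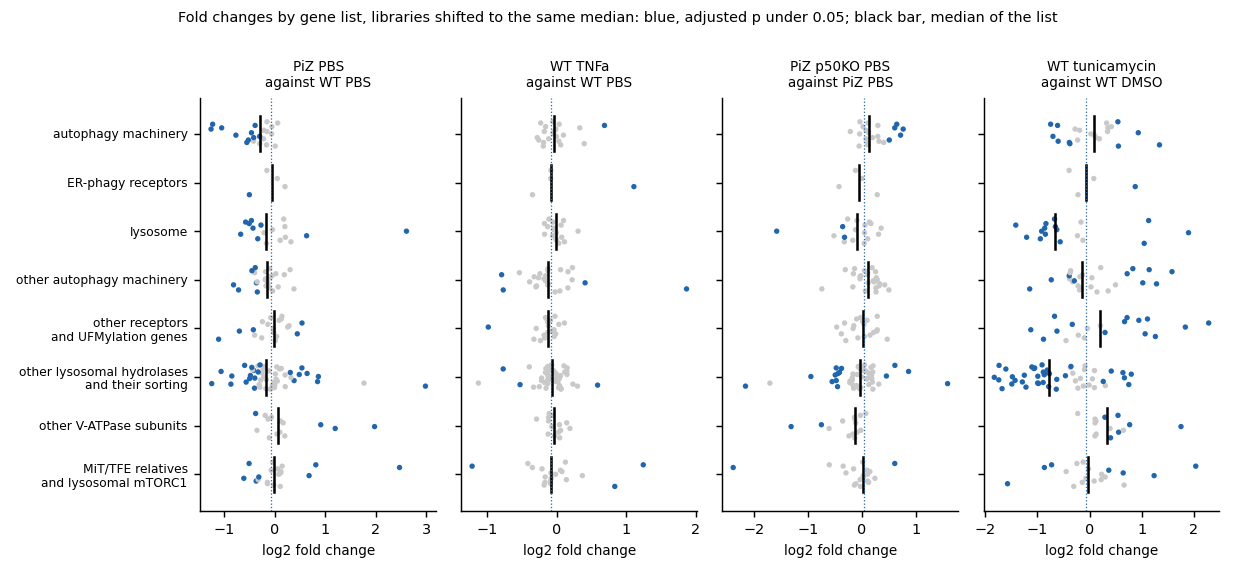
Log2 fold change (shifted scale, horizontal axis) of each gene in 3 of the members' roles and in the 5 lists of other pathway genes (rows), for the 4 comparisons, with blue points for an adjusted p under 0.05, a black bar at each list's median and a dotted line at the median of all genes tested. After tunicamycin the other lysosomal hydrolases have a median of -0.78 and the other V-ATPase subunits a median of 0.34.

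After tunicamycin for 24 hours, 10 members rose, 18 fell and 19 were not called on the shifted scale. Of all 13388 genes tested, 24.1% were higher and 29.2% lower, so calls were frequent among genes of any kind. Each role held a called member, and of Tfeb and Tfe3 this was Tfeb alone, which was not called as deposited. As deposited 18 members were higher and 3 lower (45.3% and 13.5% of all genes). All 10 risers and 3 of those that fell (Lamp1, Ctsa and Ctsb) were called on all 3 scales, against 23.8% and 13.4% of all genes. The risers were the machinery genes Atg13, Gabarap, Atg12 and Wipi2, the cargo receptors Sqstm1 and Nbr1, the ER-phagy receptor Retreg1, and the lysosomal genes Ctsl, Npc1 and Atp6v0d1. The groups did not overlap for 6 members that were higher and 6 that were lower (12.3% and 12.8% of all genes). The members' median was -0.22 against -0.07 over all genes, and 0.23 against 0.38 as deposited.

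Atg13, a subunit of the ULK1 complex, ranged from 6.8 (median 7.28) to 7.42 scaled log2 CPM after tunicamycin, against 5.59 (median 5.91) to 6.26 in DMSO livers. The groups were separate, by 1.34 (SE 0.14, adjusted p = 1.28e-05). Gabarap, an ATG8 protein, ranged from 7.97 (median 8.10) to 8.44 after tunicamycin, against 6.71 (median 7.28) to 7.40 in DMSO livers (0.94, SE 0.14, adjusted p = 0.000133), again with no overlap. Wipi2, which links the lipid mark to conjugation (0.54, adjusted p = 0.0105), and Atg12, a ubiquitin-like protein of the conjugation system (0.55, adjusted p = 0.0093), were higher too. In the other direction, 6 machinery genes were lower on the shifted scale and none of them as deposited: Ulk2 (-0.75), Atg7 (-0.70), Ulk1 (-0.61), Atg2a (-0.60), Atg16l1 (-0.39) and Atg14 (-0.38). Ulk2 ranged from 5.46 (median 5.98) to 6.73 after tunicamycin, against 6.34 (median 6.77) to 7.09 in DMSO livers, and its groups overlapped. Atg7, the enzyme that activates ATG8 proteins for conjugation, ranged from 4.67 (median 4.93) to 5.48 after tunicamycin, against 5.25 (median 5.76) to 5.91 in DMSO livers, and overlapped as well. Leaving out 1 library ended the call of Atg14 (tunicamycin 6, a, b or c, or DMSO 1, 4, 5 or 6; highest adjusted p = 0.107) and of Atg16l1 (tunicamycin 1, 6, a or c, or DMSO 1, 3, 4 or 6; 0.0633). Map1lc3b ranged from 8.31 (median 8.83) to 9.22 after tunicamycin, against 8.35 (median 8.45) to 8.55 in DMSO livers. It was not called on the shifted scale (0.35, adjusted p = 0.0578) and was called higher as deposited (0.80, adjusted p = 0.000575) and after quantile normalization (0.59, adjusted p = 0.00447).

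Sqstm1 ranged from 9.63 (median 10.06) to 10.28 after tunicamycin, against 8.22 (median 8.75) to 9.0 in DMSO livers. Every tunicamycin library lay above every DMSO library (1.28, SE 0.17, adjusted p = 8.22e-05). Nbr1, a receptor that works with p62, ranged from 8.19 (median 8.31) to 8.60 after tunicamycin, against 7.61 (median 7.93) to 8.21 in DMSO livers (0.42, adjusted p = 0.0148). Retreg1 had 6.43, 6.53 and 6.32 in tunicamycin libraries 1, 5 and 6 and 6.36, 5.00 and 6.37 in those without a number (a, b and c), against 5.55, 5.81, 4.87, 5.06, 4.99 and 5.47 in DMSO livers. Library b lay within the DMSO range and the other 5 above it (0.88, SE 0.25, adjusted p = 0.0101). Rtn3 (0.08), Tex264 (-0.39) and Calcoco1 (-0.22) were not called. Tfeb ranged from 2.12 (median 2.57) to 2.93 after tunicamycin, against 2.69 (median 3.63) to 3.81 in DMSO livers. It fell by 0.99 on the shifted scale (adjusted p = 0.00145) and was not called as deposited (-0.54, adjusted p = 0.0822). Tfe3 ranged from 4.84 (median 4.92) to 5.05 after tunicamycin, against 4.71 (median 5.05) to 5.19 in DMSO livers (-0.09, adjusted p = 0.484).

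The lysosomal members went in both directions. Ctsl, the cysteine protease cathepsin L, had 11.39, 10.75, 10.60, 10.77, 10.82 and 11.14 in tunicamycin libraries 1, 5, 6, a, b and c, against 8.55, 10.26, 8.59, 8.71, 8.96 and 9.0 in DMSO livers 1 to 6. DMSO 2 was far above the other DMSO libraries and still below all tunicamycin libraries. The difference was 1.90 (SE 0.27, adjusted p = 0.000108), and 2.15 without DMSO 2. Npc1, which exports cholesterol from lysosomes, ranged from 7.28 (median 7.81) to 8.60 after tunicamycin, against 6.24 (median 6.60) to 7.28 in DMSO livers (1.14, adjusted p = 0.00152). Atp6v0d1, a membrane subunit of the proton pump, had 7.0 to 7.10 after tunicamycin, against 5.55 to 6.17 in DMSO livers (1.05, SE 0.12, adjusted p = 1.87e-05).

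Lamp1 had 8.35, 7.66, 7.12, 7.46, 8.76 and 8.40 in tunicamycin libraries 1, 5, 6, a, b and c, against 9.47, 9.14, 9.40, 9.37, 9.38 and 9.49 in DMSO livers. All tunicamycin libraries lay below all DMSO libraries, and they spread over a wider range (-1.42, SE 0.25, adjusted p = 0.00043). Ctsb ranged from 7.42 (median 8.31) to 8.74 after tunicamycin, against 9.11 (median 9.45) to 9.67 in DMSO livers (-1.21, SE 0.22, adjusted p = 0.000689). Ctsa, a carboxypeptidase that also protects beta-galactosidase and neuraminidase, ranged from 5.86 (median 6.23) to 6.78 after tunicamycin, against 6.98 (median 7.18) to 7.40 in DMSO livers (-0.94, SE 0.17, adjusted p = 0.000449). All 3 were separate between the groups. Another 8 lysosomal members were lower on the shifted scale and not as deposited: Ctss (-0.92), Gaa (-0.86), Ctsh (-0.85), Lamp2 (-0.84), Npc2 (-0.67), Hexa (-0.66), Ctsz (-0.63) and Atp6v1a (-0.56). As deposited these 8 differed by -0.47 to -0.11. Macrophage markers fell for 13 of 15 on the shifted scale and 7 on all 3 scales (267 to 444 CPM summed over the list after tunicamycin, 530 to 1450 CPM in DMSO livers). Hepatocyte markers fell for 7 of 9 on the shifted scale and 3 on all 3 scales (24200 to 76900 CPM after tunicamycin, 123000 to 153000 CPM in DMSO livers). Endothelial markers fell for 6 of 6 on the shifted scale and for 2 on all 3 scales (Kdr and Cdh5), with 156 to 221 CPM after tunicamycin, against 297 to 328 CPM in DMSO livers. Stellate markers fell for 3 of 6 on the shifted scale and for 1 on all 3 scales (Col3a1), with 160 to 204 CPM after tunicamycin, against 236 to 324 CPM in DMSO livers. No marker of these lists was at 0 in either group, and their part in these results was not tested.

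**Figure D4:**
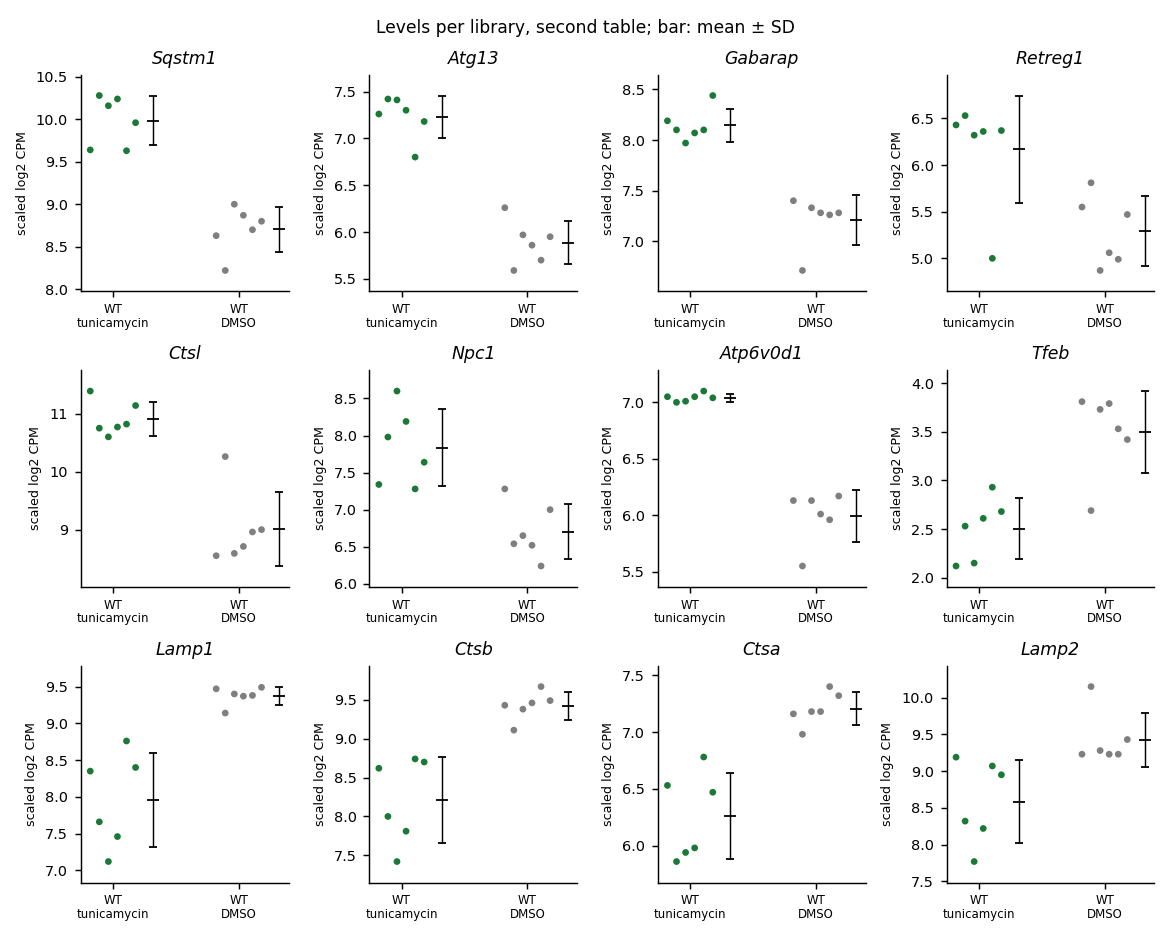
Scaled log2 CPM (vertical axis) of 12 members in each tunicamycin and DMSO library, as points with a bar for the mean ± SD (n = 6 each). Sqstm1, Atg13, Gabarap, Ctsl and Atp6v0d1 are higher and Lamp1, Ctsb, Ctsa and Lamp2 lower after tunicamycin with no overlap, and DMSO 2 stands apart for Ctsl (10.26).

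Without DMSO 2, which held the highest or the lowest DMSO value for 38 of 47 members, 11 members were called higher and 20 lower after tunicamycin (29.4% and 32.3% of all genes). The added ones were Rb1cc1, the scaffold of the ULK1 complex (0.66, adjusted p = 0.00564), Ctsd (-0.47, adjusted p = 0.00917) and Tex264 (-0.52, adjusted p = 0.00726). Outside the members, 18 of 48 hydrolases and sorting genes were lower and 5 higher on all 3 scales (13.4% and 23.8% of all genes). Their median was -0.78 on the shifted scale. Gusb, the lysosomal beta-glucuronidase, had 3.46 ± 0.54 after tunicamycin and 5.28 ± 0.19 in DMSO livers (SD, n = 6 each; -1.83, adjusted p = 2.87e-05), and Gm2a (-1.74) and the sorting receptor Sort1 (-1.74) were lower too. Of 14 other V-ATPase subunits 5 were higher and 0 lower on all 3 scales, among them Atp6v0d2 (1.76), Atp6v0e (0.77) and Atp6v0a2 (0.56). Of 19 other receptors and UFMylation genes 9 were higher and 1 lower. UFMylation attaches the ubiquitin-like UFM1 to ER ribosomes and serves ER-phagy. Cdk5rap3, a part of its ligase complex, had 7.6 ± 0.18 after tunicamycin and 6.33 ± 0.16 in DMSO livers (SD, n = 6 each; 1.26, adjusted p = 5.28e-06), and the glycogen receptor Stbd1 (1.84, adjusted p = 4.99e-05) was higher as well. Of 25 other machinery genes 6 were higher and 0 lower on all 3 scales (23.8% and 13.4% of all genes), with Uvrag at 1.58 and Epg5 at 1.29. Among them Atg16l2 was lower on the shifted scale (-1.15, adjusted p = 0.00228) and not called as deposited (-0.70, adjusted p = 0.0751). In the list of TFEB relatives and mTORC1 genes Sesn2 (2.04) and Mitf (1.24) were higher and Fnip2 (-1.57) was lower on all 3 scales.

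Across the study Sqstm1 was the member called in all 4 comparisons: 1.03 in PiZ against WT PBS, 0.55 after TNFa, -0.71 in livers labelled PiZ p50KO against PiZ, and 1.28 after tunicamycin. PiZ and TNFa share the WT PBS libraries, and the TNFa call was the one not given on all 3 scales. The PiZ p50KO comparison uses the same PiZ libraries, and its Sqstm1 call was lost without libraries 1 and 2. Ctss was called on the shifted scale in 3 of the 4, at 2.61, -1.58 and -0.92, with 0.31 after TNFa (adjusted p = 0.468). The Ctss call after tunicamycin (-0.92) was not given as deposited. Counting was assigned to genes by the authors, and whether it used strand is not given in the sources used here. Of the members, 10 share at least 10% of their exon bases with another annotated gene, so reads of these cannot be fully told apart. Sqstm1 shares 17.3% with Mrnip, Ctsl 26.8% with Gm47123, Ctsd 34.4% with Gm49369 and Atg9a 31.8% with Gm29253.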

How the data were processed

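Liver RNA was sequenced by the submitters. Per the submitters' processing notes, bcl2fastq, DRAGEN, STAR, Subread, featureCounts and edgeR were used with the mouse build GRCm38. Their settings and order are not given in the sources used here. The authors deposited 2 tables of log2 CPM, that is, log2 of depth-scaled reads with a small prior count. Each has 55774 rows for 55487 gene IDs, of which 99.5% are in GENCODE M21. Whole reads were recovered from the values within a tolerance of 0.1 read and give the depths and read numbers stated, and they were not used in a test.

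Groups came from the sample titles. For 3 tunicamycin libraries title and column disagree by number, so they are named by group only. Nothing says which libraries came from separate litters or extractions, and p-values measure the spread between these libraries.

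The tested genes passed 1 CPM in 5 or more of the 21 libraries of the first table without WT PBS 2 (13285 genes) or in 6 or more of the second table (13388 genes). Each library was shifted to the same median, and limma 3.58.1 in R 4.3.3 (lmFit and eBayes with a trend, two-sided, all libraries of a table in 1 fit, no covariates) was applied with Benjamini-Hochberg adjustment over all genes tested, at 0.05. This test was run on simulated data with noise drawn independently for each gene, on values already shifted. Such data cannot check the choice of scaling, nor differences that a library shares across genes. The alternatives were the deposited scale, quantile normalization, a pseudocount of 1 CPM, no filter, a filter at 4 CPM, a replicate block, WT PBS 2 included, each library left out, and PiZ p50KO 1 and 2 left out. Members, roles, pathway and marker lists were chosen with earlier results of these data known. Of the members past the threshold, up to 4 per role with the greatest change are given by library, with Sqstm1, Map1lc3b, Tfeb and Lamp1 in every comparison, Ccpg1 by its reads, and up to 3 genes per pathway list. Other values of single libraries were chosen after they were seen. Some genes that the rule names are not reported here. Promoter sequences are from RefSeq.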

Additional observations from a re-analysis of the deposited data

Results flagged for a closer look

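In 16 of 124 groups of 5 or 6 libraries tested for a single distant value, the highest or lowest library stood apart from the others, where chance gives about 1 in 20. All values are scaled log2 CPM. In 10 cases the library was DMSO 2. Ctsl was 10.26 there, against 8.55 to 9.0 in the other DMSO livers, and Lamp2 was 10.15, against 9.23 to 9.43. DMSO 2 was low for Lamp1 (9.14, others 9.37 to 9.49), Gabarap (6.71, others 7.26 to 7.40), Gaa (6.07, others 6.94 to 7.11) and Wipi2 (5.84, others 6.37 to 6.64). It was also low for Atg2a (5.58, others 6.42 to 6.81), Atp6v0d1 (5.55, others 5.96 to 6.17), Atg7 (5.25, others 5.68 to 5.91) and Tfeb (2.69, others 3.42 to 3.81).

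The other 6 cases fell in 6 libraries. Sqstm1 was 9.11 in PiZ 4, against 9.74 to 9.83 in the other PiZ livers. Tfe3 was 5.04 in TNFa 4, against 5.81 to 6.09 in the other TNFa livers, and 4.77 in WT PBS 1, against 4.49 to 4.55 in the other WT PBS livers tested. Npc1 was 7.33 in WT PBS 3, against 6.60 to 6.63. Tfeb was 1.36 in the library labelled PiZ p50KO 3, against 2.78 to 3.33 in the others of that group. Retreg1 was 5.00 in tunicamycin library b, against 6.32 to 6.53 in the other tunicamycin livers.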

How the results depend on the processing

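The scaling changed the calls of many members and the sign of some. As deposited, the sign of the change was kept for 24 of 47 members in PiZ, 34 after TNFa, 32 in PiZ p50KO and 35 after tunicamycin, and after quantile normalization for 37, 46, 39 and 47. As deposited, 16 members were called higher and 3 lower in PiZ, 2 and 11 in PiZ p50KO, and 18 and 3 after tunicamycin. After quantile normalization 12 and 7 were called in PiZ, and 8 were lower in PiZ p50KO. The sign changes named next are only those of members called on the shifted scale in that comparison, and of Sqstm1, Map1lc3b, Tfeb and Lamp1. Other members turned too and are not named. In PiZ as deposited the sign turned for Lamp1 (0.21), Atg7 (0.19), Ctsa (0.15), Ulk1 (0.10), Tfeb (0.10), Atg5 (0.07), Gaa (0.06), Gabarap (0.03) and Npc1 (0.02), and after quantile normalization for Lamp1 (0.28) and Lamp2 (0.00). It turned for Lamp1 in PiZ p50KO (-0.20 as deposited, -0.26 after quantile normalization) and for Atg14 (0.07) and Atg16l1 (0.06) after tunicamycin as deposited. Leaving out PiZ p50KO 1 and 2 gave 1175 genes called, 2 members higher and 1 lower, with Tfeb at -0.01.

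With WT PBS 2 included, 1706 genes were called in PiZ and 1071 after TNFa, and 1 member was lower in PiZ. As deposited these numbers were 2336 and 547, with 11 members higher and 1 lower in PiZ. The sign changes named next are again only those of members called without WT PBS 2, and of Sqstm1, Map1lc3b, Tfeb and Lamp1. With it the sign in PiZ turned for Lamp1 (0.53, 0.74 as deposited), Atg5 (0.39, 0.61), Atg3 (0.24, 0.46), Ctsh (0.22, 0.44), Lamp2 (0.20, 0.42), Ctsa (0.19, 0.41), Gabarap (0.16, 0.38) and Npc1 (0.05, 0.27), and as deposited also for Ulk1 (0.16), Atg7 (0.10) and Gaa (0.05). The cause was not tested.

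With no filter, where genes without reads are shifted too, 27321 genes were called in PiZ, 23590 in PiZ p50KO and 32045 after tunicamycin, 2 members rose after TNFa and 8 were higher in PiZ p50KO. A filter at 4 CPM gave 6 members higher in PiZ. Leaving out 1 library gave 4608 to 5127 genes, 2 to 4 members higher and 14 to 18 lower in PiZ. It gave 1351 to 2420 genes, 2 to 5 and 0 to 1 members after TNFa, 1643 to 2843 genes, 3 to 7 and 2 to 6 members in PiZ p50KO, and 5985 to 8183 genes, 10 to 11 and 16 to 20 members after tunicamycin. Replicate numbers do not pair the libraries (correlations of -0.23 to 0.56, and 2 of 5, 0 of 6, 0 of 5 and 1 of 3 libraries closest to their own number). With a replicate block 4993, 1586 and 2340 genes were called in the first table, with 3 higher and 19 lower, 3 and 0, and 5 and 4 members. After tunicamycin the block over 3 numbered pairs gave 5213 genes and 9 and 17 members, against 5787 genes and 9 and 18 members for those pairs without it. Deep sequencing left only Ccpg1 with too few reads.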

Other observations

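Within groups of the same treatment, some members were highest in the same library, a pattern chosen after its values were seen. Rb1cc1 was highest of its group in PiZ 4 (5.52 scaled log2 CPM), in the library labelled PiZ p50KO 3 (5.79), in WT PBS 4 (5.25) and in DMSO 2 (6.85). Atg3 was highest in the same libraries, at 5.90, 6.07, 6.09 and 7.44, and Lamp2 at 9.87, 10.03, 10.21 and 10.15. PiZ 4 held the highest or the lowest PiZ value for 39 of 47 members, DMSO 2 for 38, WT PBS 4 for 32 and PiZ p50KO 3 for 30. Other libraries came close to these numbers, with 32 for tunicamycin library b, 31 for WT PBS 3 and 28 for PiZ p50KO 2.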
